A study of Homo sapiens with 6 samples.

Results

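The 40 genes described here encode the core of the DNA replication machinery and the enzymes that make its building blocks. They were chosen by gene symbol, from origin licensing through the replication fork to deoxynucleotide synthesis, and make up 40 of the 62710 genes in the count table. All 40 had enough counts to be tested, among 16753 genes tested in all. The RNA came from HCT116 cells, a human colon cancer cell line. The sh-NC cells carried a scrambled control sequence and the sh-IGF2BP3 cells an shRNA against IGF2BP3, an RNA-binding protein that attaches to many mRNAs. Both lines were made with lentivirus and selected as stable lines with puromycin, and the knockdown line rests on 1 shRNA sequence. Each line gave 3 libraries of total RNA, and the question put to them was which transcripts differ once IGF2BP3 is reduced. The labels do not say whether the libraries of a line came from separate cultures, so the tests measure the spread between these libraries, which may be technical.

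Chromosomes are copied from many origins at a time. In late mitosis and G1 the origin recognition complex, CDC6 and CDT1 load the MCM2 to MCM7 ring onto DNA, which is called licensing. In S phase CDC45 and the GINS complex join the ring to form the active helicase, the primase and polymerase alpha lay down primers, and polymerases epsilon and delta extend them with the help of the sliding clamp PCNA. Many of these genes are transcribed at the G1 to S boundary by E2F factors, so their transcript levels rise and fall with the share of cells in that phase. In RNA from a whole culture, fewer cells in S phase and less RNA per cell cannot be told apart.

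Counts assigned to genes ran from 16146718 to 23576469 per library. Expression is given as TMM-normalized counts scaled to library size (CPM), and differences as log2 fold changes of sh-IGF2BP3 over sh-NC from edgeR, with their standard errors (SE) and Benjamini-Hochberg adjusted p-values over all 16753 genes. The targeted gene IGF2BP3 had 81.6 ± 10.2 CPM in sh-NC and 56.1 ± 3.98 CPM in sh-IGF2BP3 (mean ± SD, n = 3 each), giving a ratio of 0.687 with no overlap between the groups. Its adjusted p was 0.126 in edgeR, and the exact two-sided permutation test gave p = 0.1, the smallest that 3 libraries against 3 allow. The libraries also differed in how their counts ran with the GC content of the transcript. Per 10 points of GC, log2 CPM shifted by −0.054, −0.23 and −0.21 in sh-NC 1 to 3, and by 0.35, 0.15 and −0.0084 in sh-IGF2BP3 1 to 3. Each comparison was therefore also fitted with every library's trend in GC content and gene length removed, and those values are given as GC-removed. With these trends removed, the IGF2BP3 difference was −0.22 on the log2 scale and the groups overlapped. As the trends differed between the groups, their removal can also take out part of a real difference. The study also reports the knockdown of IGF2BP3 in HCT116 cells from qPCR and Western blotting. Of 6 epithelial markers, 5 were detected well enough to be tested, with summed levels of 508 to 824 FPKM (fragments scaled to gene length and library size) in sh-NC and 693 to 919 in sh-IGF2BP3, and the exception was VIL1. The 4 immune markers summed to at most 0.114 FPKM in any library, the 4 fibroblast markers to 3.05 to 5.89 in sh-NC and 3.24 to 6.69 in sh-IGF2BP3, and the 3 endothelial markers to at most 0.478.

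None of the 40 genes passed the study's threshold of a 1.5-fold change with an adjusted p under 0.05 in edgeR, and neither did any other gene (0% of 16753). At an unadjusted p under 0.05, 13 of the 40 were higher in sh-IGF2BP3, where 13.6% of all tested genes were, and 0 were lower, where 8.54% of all were. The 3 sh-IGF2BP3 libraries lay above the 3 sh-NC libraries without overlap for 17 of the 40, against 13.2% of all genes. For 0 of the 40 they lay below, against 11.0% of all genes. The log2 fold change was above 0 for 36 of the 40, against 49.0% of all genes, and its median was 0.34, with a range from −0.22 to 0.94. The median over all tested genes was −0.01. In the GC-removed fit all 40 were above 0 (51.4% of all genes), with a median of 0.34 and a range from 0.04 to 0.70. In that fit 9 had an unadjusted p under 0.05 and were higher (6.86% of all genes), 13 were higher with no overlap (8.49%), and 0 were lower by either measure (3.59% and 6.70%). The adjusted p-values of the 40 ran from 0.103 to 0.959 before and from 0.415 to 0.957 after the removal.

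DESeq2, the other count test, called 6 of the 40 at the same threshold, against 4.29% of the genes it tested. They were CDT1, MCM2, MCM5, POLD1, LIG1 and TK1, all of them higher in sh-IGF2BP3, and 0 were called lower, against 1.05% of the genes. edgeR with no filter on low counts also called 6, all higher, against 1.89% of 36335 genes. The log2 fold changes of DESeq2 were above 0 for the same number, 36 of the 40.

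**Figure D1:**
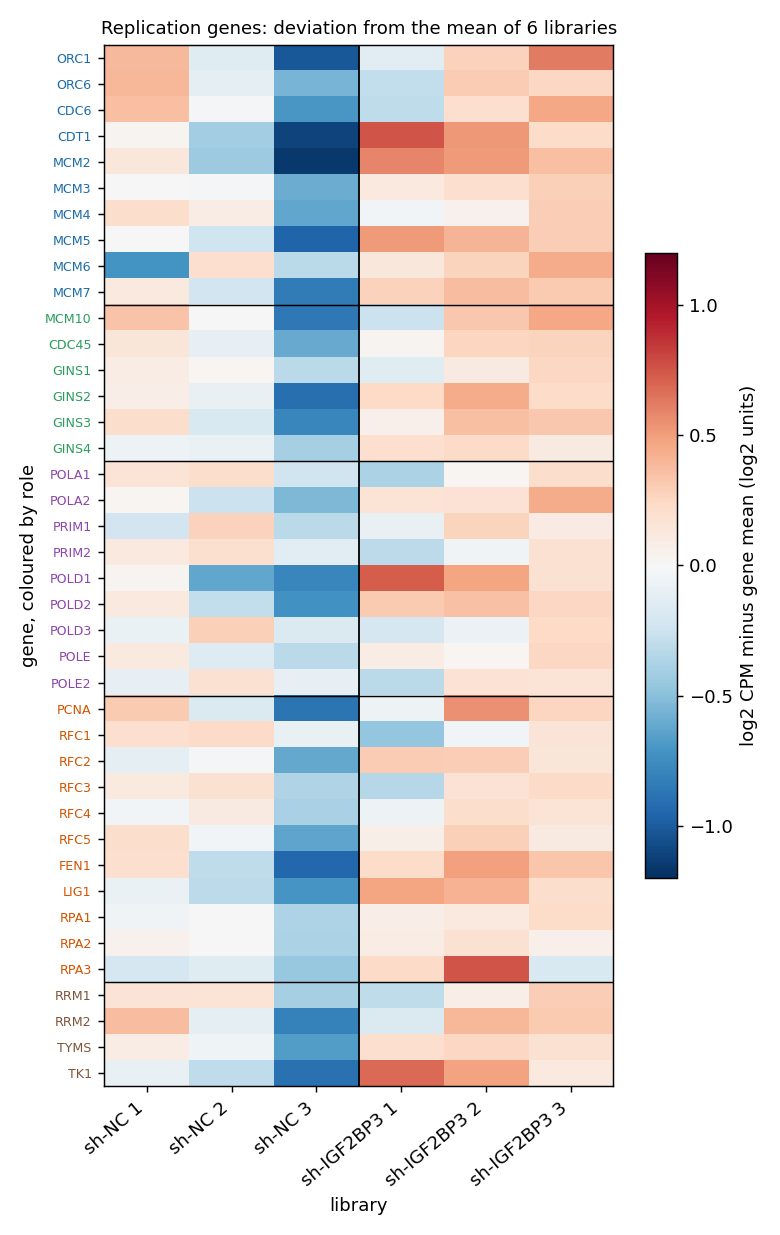
Deviation of each of the 40 genes from its own mean over 6 libraries, in log2 CPM, with genes in rows (label colour shows the role) and libraries in columns, sh-NC left of the black line. The sh-NC 3 column is the lowest of its row for 34 of the 40 genes, and sh-NC 1 and sh-NC 2 lie close to the sh-IGF2BP3 columns for many rows.

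A single control library carried much of the group difference. Library sh-NC 3 had the lowest level of 34 of the 40 genes, which is 85% of them, while it was the lowest library for 24.1% of all tested genes. The median deviation of the 40 from their own means was 0.10, −0.06 and −0.61 log2 units in sh-NC libraries 1, 2 and 3, compared with 0.07, 0.26 and 0.24 in knockdown libraries 1, 2 and 3. On this measure sh-NC 1 lay above sh-IGF2BP3 1, so the groups overlapped. After removal of the GC and length trends sh-NC 3 was lowest for 39 of the 40 (97.5%, against 31.3% of all genes), and the medians were 0.16, −0.06 and −0.57 against 0.03, 0.24 and 0.27. The exception was MCM6, which was lowest in sh-NC 1. The spread between libraries was larger in sh-NC than in sh-IGF2BP3 for 34 of the 40 genes (85%, against 47.6% of all genes), with a median SD of 0.39 log2 units in the controls and 0.17 after knockdown. Over all tested genes those medians were 0.27 and 0.28.

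Without sh-NC 3 the median log2 fold change of the 40 was 0.14, 30 of them were above 0 (49.4% of all genes) and 6 were higher at an unadjusted p under 0.05 (7.58% of all genes). Those 6 were CDT1, MCM2, MCM5, POLD1, LIG1 and TK1. With the trends removed as well, the median without sh-NC 3 was 0.11 and 38 of the 40 were above 0, as were 8744 of all 17240 genes. The genes higher at an unadjusted p under 0.05 in that fit were MCM6 and LIG1 (3.41% of all genes). Without sh-NC 1 the median was 0.50 and 13 of the 40 passed the full threshold, against 15.7% of all genes in either direction, 1739 higher and 985 lower of 17379. They were ORC1, CDT1, MCM2, MCM5, MCM7, GINS2, GINS3, POLD1, POLD2, PCNA, FEN1, LIG1 and TK1, all higher. With the trends removed, the fit without sh-NC 1 called 8 of the 40, against 4.19% of all genes.

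The number higher at an unadjusted p under 0.05 followed the library left out. It was 22 of the 40 without sh-NC 1 (17.7% of all genes), 9 without sh-NC 2 (7.02%), 12 without sh-IGF2BP3 1 (8.74%), 7 without sh-IGF2BP3 2 (7.53%) and 8 without sh-IGF2BP3 3 (14.3%). In the GC-removed fits it was 27 without sh-NC 1 (15.7%), 5 without sh-NC 2 (3.59%), 7 without sh-IGF2BP3 1 (5.49%), 2 without sh-IGF2BP3 2 (2.24%) and 4 without sh-IGF2BP3 3 (7.03%). Each of these shares of the 40 was above the share of all genes. Cell cycle phase was not measured in these cultures, and its part in the difference between libraries was not tested.

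**Figure D2:**
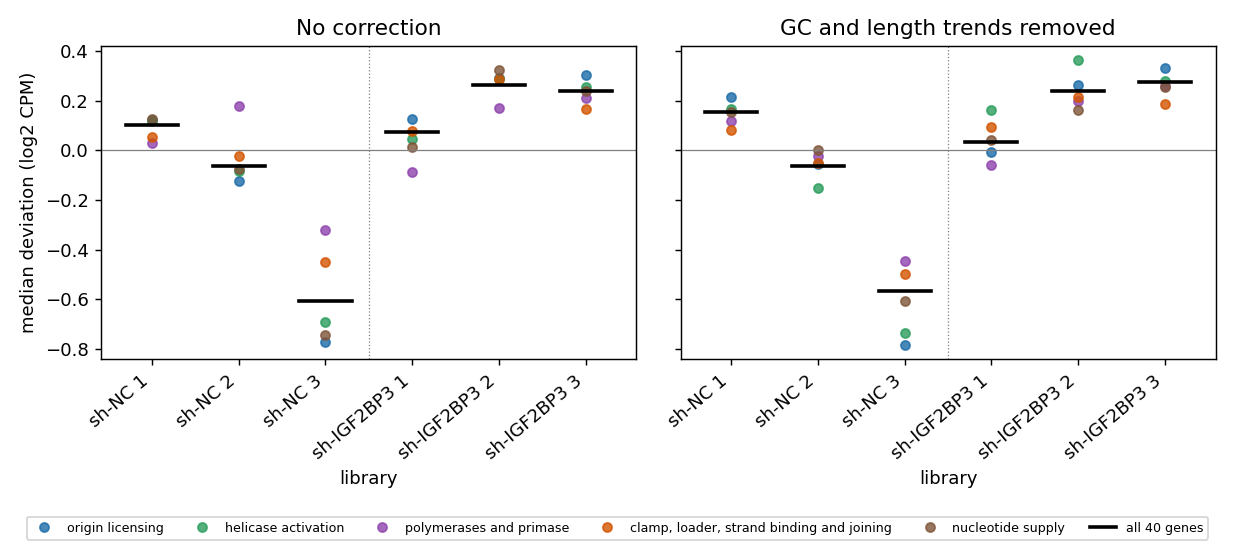
Median deviation from the gene mean (log2 CPM, vertical axis) in each of the 6 libraries, for each role (coloured points) and for all 40 genes (black bars), before (left) and after (right) removal of the GC and length trends. The bar of sh-NC 3 stands at −0.61 on the left and −0.57 on the right, while the other 5 libraries lie between −0.06 and 0.27.

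The licensing genes number 10. Of these, 5 were higher at an unadjusted p under 0.05 (13.6% of all genes), 5 were higher with no overlap (13.2% of all) and all 10 were above 0 (49.0% of all), and the median log2 fold change was 0.48, or 0.34 with the trends removed. Without sh-NC 3 the median was 0.27 and 3 were higher at an unadjusted p under 0.05 (7.58% of all). Several of these genes carry near their start sites the letters that E2F factors are known to bind, searched here as TTTCCCGC, TTTCGCGC, TTTGCCGC or TTTGGCGC on either strand. Windows of 30 bases around them are shown for 6 licensing genes so that genes with larger and smaller differences can be compared; capitals mark the match nearest the start site, sequences run 5′ to 3′ on the gene's strand, and they are from RefSeq on GRCh38.p14.
CDC6: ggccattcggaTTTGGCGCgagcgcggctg
CDT1: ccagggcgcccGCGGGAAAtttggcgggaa
MCM2: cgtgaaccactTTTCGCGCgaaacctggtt
MCM3: agttcggaagtTTTCGCGCcggggtggagt
MCM6: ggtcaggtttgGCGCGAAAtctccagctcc
MCM7: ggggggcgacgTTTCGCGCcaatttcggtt
They lie at chr17:40287875-40287904 (plus strand), chr16:88803743-88803772 (plus), chr3:127598402-127598431 (plus), chr6:52284728-52284757 (minus), chr2:135876511-135876540 (minus) and chr7:100101388-100101417 (minus). MCM2, MCM3 and MCM7 each hold 2 matches in the promoter window and MCM6 holds 4. No promoter window was given for MCM4 and MCM5, so these were not searched. In MCM2 and MCM6 another match on the other strand overlaps the one in capitals and takes in the lower-case letters beside it.

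CDT1, which brings the MCM ring to the origin (ENSG00000167513, chr16:88803789-88809258, with gene positions throughout on GRCh38), had 96.7, 70.8 and 43.6 CPM in control libraries sh-NC 1, 2 and 3, compared with 159, 135 and 110 in knockdown libraries 1, 2 and 3. Every knockdown library was above every control library. The log2 fold change was 0.94 (SE 0.25, adjusted p 0.103), the largest of the 40. It was 0.34 once the trends were removed, and the groups then overlapped. CDT1 transcripts are among the most GC-rich of the 40, at 64.9%.

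MCM2, a subunit of the ring (ENSG00000073111, chr3:127598410-127622436), had 289, 195 and 118 CPM in the controls and 395, 376 and 339 after knockdown, again with no overlap. Its log2 fold change was 0.88 (SE 0.26, adjusted p 0.111), and 0.58 with the trends removed, where the groups still did not overlap. Without sh-NC 3 it was 0.59. On the opposite strand AC023593.1 shares 22.7% of the exon bases of MCM2, but had 79 counts against 30781. MCM5, the subunit that closes the ring beside MCM2 (ENSG00000100297, chr22:35400134-35425431), had 250, 212 and 129 CPM in sh-NC against 356, 333 and 307. Its log2 fold change was 0.75 (SE 0.23, adjusted p 0.116), or 0.55 with the trends removed, and the groups did not overlap in either fit. It came to 0.50 without sh-NC 3.

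MCM7 (ENSG00000166508, chr7:100092728-100101940), whose introns host a cluster of microRNAs, had 585, 462 and 302 CPM in the controls and 653, 699 and 670 after knockdown. The 3 knockdown libraries were within a narrow band above all 3 control libraries. The log2 fold change was 0.58 (SE 0.23, adjusted p 0.157), and with the trends removed it was 0.30 and the groups overlapped. Leaving out sh-NC 3 gave 0.34.

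MCM6 (ENSG00000076003, chr2:135839626-135876443) differed from its partners in the order of the libraries. Its level was 126, 238 and 165 CPM in control libraries 1, 2 and 3 and 228, 249 and 282 in the knockdown libraries. The lowest library was sh-NC 1, and sh-NC 2 reached into the knockdown range. The log2 fold change was 0.52 (SE 0.22, adjusted p 0.191), and 0.70 with the trends removed, the largest of the 40 in that fit, with no overlap. Leaving out sh-NC 1 gave 0.33, or 0.56 in the GC-removed fit, while leaving out sh-NC 2 gave 0.81, or 0.95 in that fit. Set against MCM4 per length, the FPKM ratio of MCM6 to MCM4 was 0.690, 1.42 and 1.62 in the controls and 1.48, 1.53 and 1.46 after knockdown. All but 1 of the 6 libraries thus had a ratio between 1.42 and 1.62, and sh-NC 1 stood apart from them. The same library had the lowest ratio to the other partners, 0.249 to MCM3 (0.418 to 0.497 in the other libraries) and 0.228 to MCM7 (0.370 to 0.580). For MCM2 and MCM5 the other libraries were themselves spread, with 0.496 in sh-NC 1 against 0.658 to 1.60, and 0.883 against 1.12 to 2.26.

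The remaining 5 licensing genes had smaller differences. MCM3 and MCM4, the other ring subunits, had log2 fold changes of 0.38 (SE 0.20, adjusted p 0.281) and 0.18 (SE 0.22, adjusted p 0.66). For MCM3 the groups did not overlap before removal of the trends but did after it. ORC1 and ORC6, subunits of the origin recognition complex, had 0.44 (SE 0.28, adjusted p 0.37) and 0.14 (SE 0.24, adjusted p 0.75). CDC6, the loader ATPase, had 0.21 (SE 0.26, adjusted p 0.642), with 235, 180 and 113 CPM in the controls and 149, 211 and 252 after knockdown. For ORC1, ORC6 and CDC6 the groups overlapped, with sh-NC 1 above the lowest knockdown library and sh-NC 3 the lowest of all 6.

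**Figure D3:**
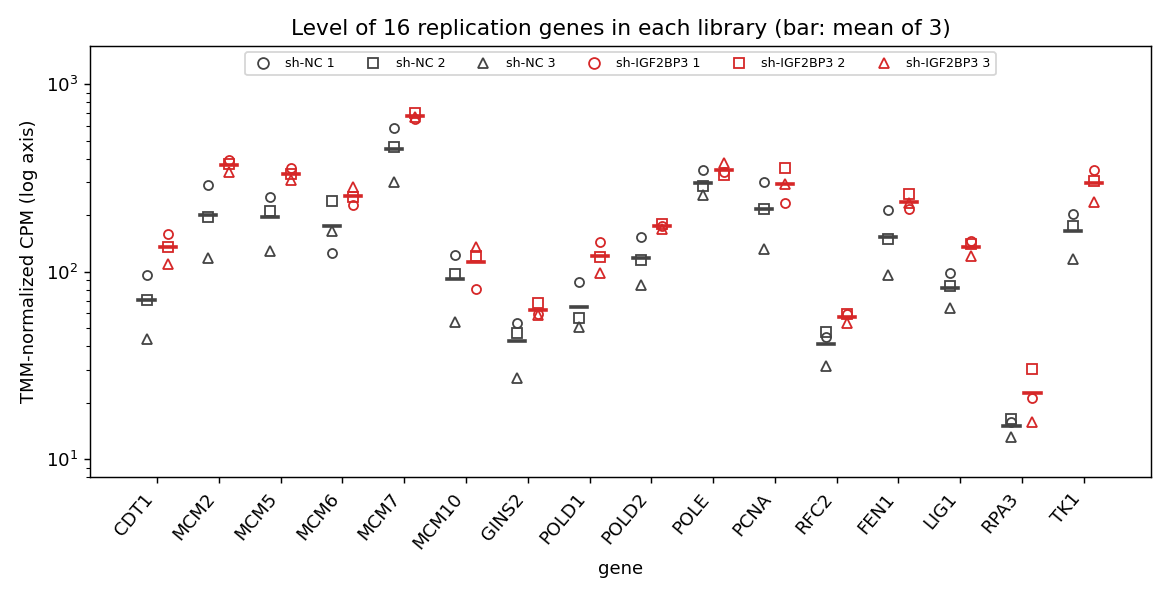
TMM-normalized CPM (log axis) of 16 of the genes in each library, with sh-NC in grey, sh-IGF2BP3 in red, marker shape giving the replicate number and bars the mean of 3 libraries. CDT1, MCM2 and TK1 show all red points above all grey points, while for PCNA, MCM10 and POLE the colours overlap.

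Helicase activation is represented by 6 genes. Of these 1 was higher at an unadjusted p under 0.05, against 13.6% of all genes. All 6 were above 0 (49.0% of all), and the median log2 fold change was 0.34. Trend removal put the median at 0.45, and 4 of the 6 were higher at that p (6.86% of all genes), the 4 being GINS1 to GINS4, the subunits of one complex. Without sh-NC 3 neither fit left any of the 6 higher at that p. Of all genes, 7.58% were higher at that p without sh-NC 3, and 3.41% with the trends removed as well. GINS2, the member with the largest difference before removal, has its E2F letters at chr16:85688967-85688996 (minus strand).
GINS2: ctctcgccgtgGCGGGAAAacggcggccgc
The gene itself (ENSG00000131153, chr16:85676198-85690073) had 53.3, 47.3 and 27.0 CPM in the controls and 59.6, 68.5 and 58.8 after knockdown, with no overlap. Its log2 fold change was 0.55 (SE 0.23, adjusted p 0.18), and 0.52 with the trends removed, or 0.29 and 0.27 without sh-NC 3.

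GINS4 had 31.4, 31.0 and 24.9 CPM in the controls and 37.7, 38.3 and 35.3 after knockdown, also without overlap, for a log2 fold change of 0.35 (SE 0.19, adjusted p 0.294). Of its exon bases 21.2% are shared with AC009630.2 on the opposite strand, which had 56 counts over the 6 libraries. GINS3 had 25.2, 19.2 and 12.7 CPM against 22.8, 28.1 and 27.3, and GINS1 had 52.1, 49.8 and 39.3 against 44.5, 52.9 and 58.2. Both overlapped between the groups, with log2 fold changes of 0.45 (SE 0.25, adjusted p 0.293) and 0.14 (SE 0.19, adjusted p 0.695). After removal of the trends the 4 GINS genes had log2 fold changes from 0.42 to 0.62, and adjusted p-values from 0.441 to 0.472. None of the 4 overlapped between the groups in that fit, where 8.49% of all genes were higher with no overlap.

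MCM10, which helps the helicase start and had the highest level per length in this role at 18.4 FPKM (ENSG00000065328, chr10:13161558-13211110), had 123, 97.0 and 53.7 CPM in the controls and 81.3, 122 and 135 after knockdown. Library sh-NC 1 was above sh-IGF2BP3 1, and the log2 fold change was 0.30 (SE 0.27, adjusted p 0.521). It moved to 0.58 without sh-NC 1, 0.01 without sh-NC 3, 0.49 without sh-IGF2BP3 1 and 0.12 without sh-IGF2BP3 3. CDC45 had 48.2, 40.5 and 28.6 CPM against 44.4, 51.9 and 52.2, and a log2 fold change of 0.34 (SE 0.21, adjusted p 0.349).

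The polymerases and primase gave the lowest median of the 5 roles. Of 9 genes, 2 were higher at an unadjusted p under 0.05 (13.6% of all genes), 6 were above 0 (49.0% of all), and the median log2 fold change was 0.16, or 0.23 with the trends removed, where all 9 were above 0 (51.4% of all) and 0 were higher at that p (6.86% of all). The 2 were POLD1 and POLD2, the catalytic and an accessory subunit of polymerase delta, which makes the lagging strand.

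POLD1 (ENSG00000062822, chr19:50384204-50418018) had 88.5, 56.4 and 50.5 CPM in the controls and 143, 120 and 98.3 after knockdown. All knockdown libraries were higher, with a log2 fold change of 0.89 (SE 0.23, adjusted p 0.103). Removing the trends left 0.35 with overlapping groups, and its transcript GC content of 65.0% was the highest of the 40. POLD2 (ENSG00000106628, chr7:44114631-44124358) had 154, 116 and 85.5 CPM in the controls and 176, 181 and 168 after knockdown, with no overlap. Its log2 fold change was 0.56 (SE 0.21, adjusted p 0.149), or 0.30 with the trends removed and overlapping groups, and 0.35 without sh-NC 3. POLD3 had 29.4, 38.0 and 27.5 CPM against 27.0, 29.5 and 36.6, a log2 fold change of −0.03 (SE 0.21, adjusted p 0.948) with overlapping groups.

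POLE, the catalytic subunit of the leading-strand polymerase epsilon (ENSG00000177084, chr12:132623753-132687376), had the highest level per length among the polymerases and carries E2F letters at chr12:132687342-132687371 (minus strand).
POLE: tgggtgggagcGCGCCAAAtttctcccctg
It had 348, 288 and 256 CPM in the controls and 341, 327 and 381 after knockdown. Library sh-NC 1 was above 2 of the 3 knockdown libraries, and the log2 fold change was 0.23 (SE 0.19, adjusted p 0.482), moving to 0.37 without sh-NC 1, 0.12 without sh-NC 3 and 0.15 without sh-IGF2BP3 3. Its partner POLE2 had 19.8, 23.9 and 19.7 CPM against 16.9, 23.9 and 23.6, a log2 fold change of 0.02 (SE 0.22, adjusted p 0.959).

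The 4 subunits of polymerase alpha and primase, which make the primers, had log2 fold changes of −0.09 for POLA1, −0.11 for PRIM2, 0.16 for PRIM1 and 0.51 for POLA2. The value of POLA2 rests on 5.62 to 11.1 CPM per library, and 35.1% of its exon bases are shared with AP000944.2 on the same strand, so its counts are uncertain. All 4 were above 0 in the GC-removed fit, from 0.14 to 0.46.

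The clamp, its loader, the single-strand binding proteins and the enzymes that join lagging-strand fragments make up 11 genes. Of them 4 were higher at an unadjusted p under 0.05 (13.6% of all genes), 5 were higher with no overlap (13.2% of all) and 10 were above 0 (49.0% of all), with a median log2 fold change of 0.27, or 0.34 with the trends removed. The windows with E2F letters of PCNA and LIG1, the clamp and the ligase, lie at chr20:5126663-5126692 and chr19:48170440-48170469, both on the minus strand.
PCNA: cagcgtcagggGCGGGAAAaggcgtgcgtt
LIG1: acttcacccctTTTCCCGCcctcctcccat
PCNA, the sliding clamp (ENSG00000132646, chr20:5114953-5126626), had the highest level per length of the 40 genes, 179 FPKM over the 6 libraries. Its level was 302, 217 and 132 CPM in the controls and 233, 356 and 292 after knockdown. Library sh-NC 1 was above 2 of the 3 knockdown libraries, and the log2 fold change was 0.44 (SE 0.26, adjusted p 0.332). It moved to 0.75 without sh-NC 1, 0.16 without sh-NC 3 and 0.28 without sh-IGF2BP3 2.

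LIG1, which seals the joined fragments (ENSG00000105486, chr19:48115445-48170603), had 98.8, 83.9 and 63.9 CPM in the controls and 146, 140 and 121 after knockdown. The groups did not overlap before or after removal of the trends, with log2 fold changes of 0.72 (SE 0.20, adjusted p 0.103) and 0.59 (SE 0.19, adjusted p 0.415). Without sh-NC 3 they were 0.55 and 0.40. It was the only one of the 40 that had an unadjusted p under 0.05 in all 4 of these fits. FEN1, the nuclease that trims the fragments (ENSG00000168496, chr11:61792911-61797238), had 213, 149 and 96.6 CPM in the controls and 216, 260 and 234 after knockdown. Its lowest knockdown library was just above sh-NC 1. The log2 fold change came to 0.63 (SE 0.24, adjusted p 0.156), or 0.43 with the trends removed and overlapping groups. It was 0.95 without sh-NC 1 and 0.36 without sh-NC 3.

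The clamp loader has a large subunit, RFC1, and 4 small ones. RFC2 (ENSG00000049541, chr7:74231499-74254458) had 45.0, 47.5 and 31.6 CPM in the controls and 59.5, 59.3 and 53.4 after knockdown, with no overlap. Its log2 fold change was 0.47 (SE 0.20, adjusted p 0.181), or 0.27 with the trends removed and overlapping groups, and 0.29 without sh-NC 3. RFC1 had 177, 180 and 145 CPM in sh-NC against 111, 150 and 171, and the lowest log2 fold change of the 40 at −0.22 (SE 0.20, adjusted p 0.541). Without sh-NC 3, RFC1 was the only gene of the 40 whose knockdown libraries lay below the controls with no overlap, against 14.6% of all genes. RFC3, RFC4 and RFC5 lay between RFC1 and RFC2, at 0.04, 0.20 and 0.27.

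Replication protein A covers single-stranded DNA. RPA3, its smallest subunit (ENSG00000106399, chr7:7636518-7718607), had 15.7, 16.4 and 13.2 CPM in the controls and 21.2, 30.4 and 15.9 after knockdown. Library sh-IGF2BP3 3 lay within the control range and sh-IGF2BP3 2 stood high, and the log2 fold change was 0.57 (SE 0.25, adjusted p 0.199), or 0.30 without sh-IGF2BP3 2. RPA1 and RPA2 had smaller differences, 0.27 (SE 0.18, adjusted p 0.399) and 0.21 (SE 0.18, adjusted p 0.522), although neither overlapped between the groups. With the trends removed the groups overlapped for RPA2 but not for RPA1.

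Of the 4 genes for nucleotide supply, 1 was higher at an unadjusted p under 0.05 (13.6% of all genes) and all 4 were above 0 (49.0% of all), with a median log2 fold change of 0.34, or 0.30 with the trends removed, where 0 were higher at that p (6.86% of all). TK1, the thymidine kinase of the salvage route (ENSG00000167900, chr17:78174091-78187233), had 204, 176 and 117 CPM in the controls and 349, 303 and 236 after knockdown. The groups did not overlap, and the log2 fold change was 0.84 (SE 0.23, adjusted p 0.103). In the GC-removed fit it was 0.29 (SE 0.19, adjusted p 0.595) and the groups still did not overlap. TYMS, which makes thymidylate by the other route, had 103, 93.3 and 60.4 CPM against 111, 115 and 109, with no overlap and a log2 fold change of 0.38 (SE 0.21, adjusted p 0.284). Of the exon bases of TYMS, 39.1% are shared with ENOSF1 on the opposite strand, which had 8246 counts over the 6 libraries against 10876 for TYMS. The TYMS value is uncertain, since the use of strand in counting is not given in the sources used here. RRM2 shares 20.2% of its exon bases with AC007240.1 on the same strand. RRM1 and RRM2, the subunits of ribonucleotide reductase, had log2 fold changes of 0.05 (SE 0.21, adjusted p 0.911) and 0.31 (SE 0.26, adjusted p 0.502). RRM2 had 463, 334 and 204 CPM in the controls and 318, 473 and 446 after knockdown, so that sh-NC 1 and sh-NC 3 were close to the highest and the lowest values of the gene.

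The size of the difference followed the GC content of the transcripts. Across the 40 genes, whose GC content ran from 39.1% to 65.0% around an all-gene median of 48.7%, the Spearman correlation of log2 fold change with GC was 0.80. This is a correlation across genes measured in the same 6 libraries, and genes are not independent replicates. Over all tested genes log2 CPM also shifted with GC, by −0.054, −0.23 and −0.21 per 10 points in sh-NC 1 to 3. In sh-IGF2BP3 1 to 3 those shifts were 0.35, 0.15 and −0.0084. A climb with GC is thus not particular to the 40, and the correlation over all genes is not given here. The 20 genes of lowest GC had a median log2 fold change of 0.18, and the 20 of highest GC had 0.53. After removal the medians were 0.35 and 0.33, and the correlation was 0.18. The removal subtracts each library's trend with GC as fitted over all genes, so a weaker relation follows from the procedure itself. The 4 genes below 0 without removal, RFC1, PRIM2, POLA1 and POLD3, had GC contents of 41.7%, 41.6%, 42.9% and 43.0%, and after removal they were at 0.04, 0.14, 0.23 and 0.19. CDT1, POLD1 and TK1, the 3 of highest GC content, moved from 0.94, 0.89 and 0.84 to 0.34, 0.35 and 0.29, while MCM6, at 43.1%, moved from 0.52 to 0.70. Which genes lead the group therefore depends on whether the trends are removed, whereas the median of the group does not.

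**Figure D4:**
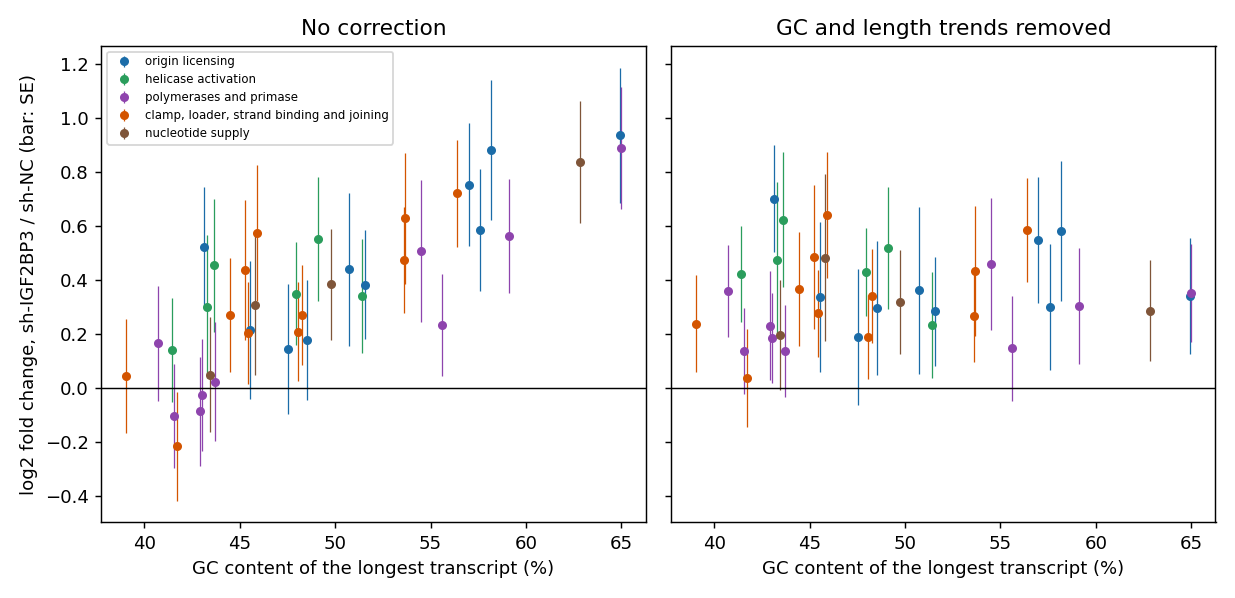
Log2 fold change of sh-IGF2BP3 over sh-NC (points, with SE as bars) against the GC content of the longest transcript for the 40 genes, coloured by role, before (left) and after (right) removal of each library's GC and length trends. The values climb with GC content on the left (Spearman 0.80). On the right, where the trends with GC had been subtracted, they lie between 0.04 and 0.70 with no such climb (0.18).

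Per length, the levels of the 40 genes spanned from 0.691 FPKM for POLA2 to 179 FPKM for PCNA, as means of the 6 libraries. After PCNA came MCM7 at 127, TK1 at 124 and MCM3 at 123 FPKM, whose ranges over the libraries overlapped, then FEN1 at 87.3. Within the MCM ring, whose subunits are present once each in the complex, the mean levels were 127 for MCM7, 123 for MCM3, 59.6 for MCM2, 51.7 for MCM6, 38.4 for MCM4 and 35.9 FPKM for MCM5. The order of MCM2, MCM6, MCM4 and MCM5 was not the same in each library. The levels also depend on the gene length behind the FPKM, 9852 bases for MCM4 against 3645 for MCM3. In CPM these genes were closer, with 434, 398 and 242 for MCM4 against 445, 436 and 293 for MCM3 in sh-NC 1 to 3. In sh-IGF2BP3 1 to 3 they had 367, 389 and 460 against 480, 510 and 540. The 4 GINS subunits lay lower, at 16.1 FPKM for GINS2 and 4.36 to 6.13 for the others. The helper and large subunits of the polymerases were also low, with POLE at 26.0, POLD1 at 18.6, POLD2 at 18.1, POLE2 at 7.21, POLA1 at 6.06 and POLD3 at 5.69 FPKM.

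**Figure D5:**
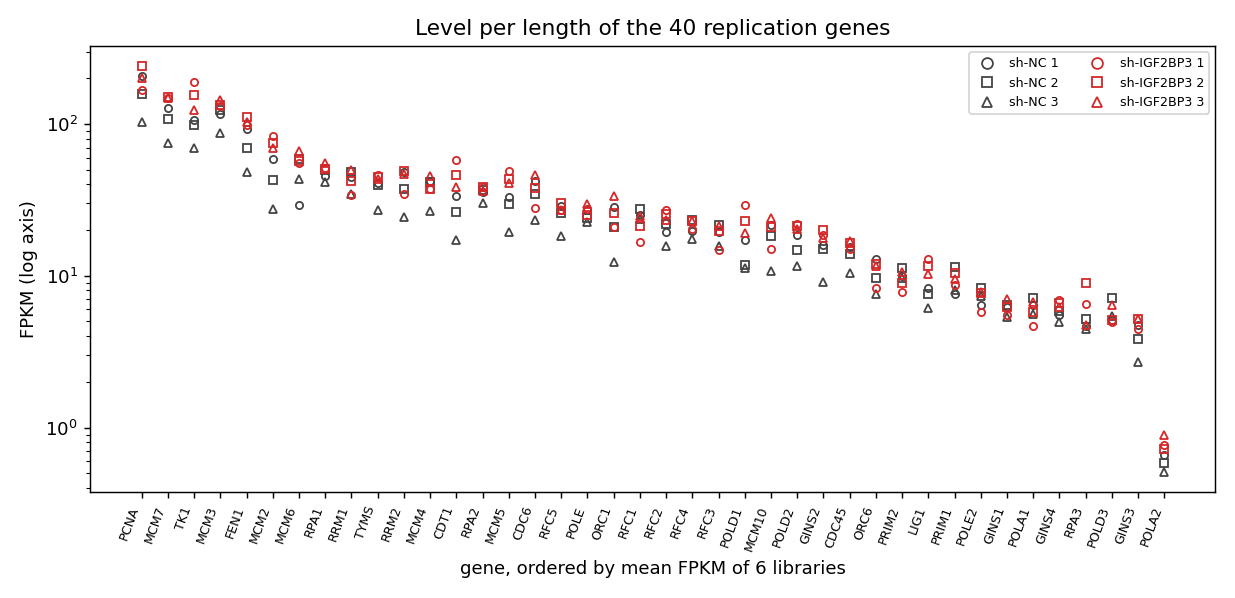
FPKM (log axis) of the 40 genes in each of 6 libraries, ordered by their mean, with sh-NC in grey and sh-IGF2BP3 in red and marker shape giving the replicate number. Levels run from 179 FPKM for PCNA to 0.691 for POLA2, and the grey triangle of sh-NC 3 is the lowest point for most genes.

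Ratios within complexes were compared between the groups for 6 pairs, by exact two-sided permutation tests with p-values adjusted over the 6. No ratio could pass at this size, since the smallest p that 3 against 3 allows is 0.1. The FPKM ratio of CDT1 to GMNN, its inhibitor geminin, was 1.98, 1.71 and 1.57 in the controls and 4.06, 2.39 and 2.10 after knockdown. The groups did not overlap, the difference was 0.65 log2 units (exact p = 0.1, adjusted 0.2), and with the trends removed it turned to −0.070. The ratio of RFC1 to the mean of RFC2 to RFC5 was 1.16, 1.19 and 1.40 in the controls and 0.744, 0.860 and 1.04 after knockdown. It was lower in every knockdown library, by −0.51 log2 units (exact p = 0.1, adjusted 0.2), or −0.28 with the trends removed.

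The ratio of MCM10 to MCM2 was 0.369, 0.429 and 0.393 in the controls and 0.178, 0.279 and 0.343 after knockdown, a difference of −0.62 log2 units without overlap (exact p = 0.1, adjusted 0.2) that came to −0.11 with the trends removed. For RRM2 to RRM1 the ratio was 1.08, 0.776 and 0.701 in the controls and 1.02, 1.16 and 0.947 after knockdown. These overlapped, with a difference of 0.31 (exact p = 0.3, adjusted 0.36). PRIM1 to POLA1 differed by 0.28 (exact p = 0.3, adjusted 0.36) and POLE2 to POLE by −0.23 (exact p = 0.4, adjusted 0.4), both with overlap.

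Another 66 genes of the same pathway were listed for comparison. Of these, 11 were higher and 2 lower at an unadjusted p under 0.05 (13.6% and 8.54% of all genes), 37 were above 0 (49.0% of all), and the median log2 fold change was 0.10. In the GC-removed fit 7 were higher and 0 lower (6.86% and 3.59% of all), 56 were above 0 (51.4% of all), and the median was 0.16. Library sh-NC 3 was the lowest for 32 of the 66 (48.5%, against 24.1% of all). The 8 other licensing genes, among them the constitutive ORC subunits, had a median of −0.14 and 2 above 0, or 0.15 and 7 with the trends removed. Of the 12 origin firing and fork protection genes, 1 was higher at that p, RECQL4, a helicase that takes part in firing, at 0.79 (SE 0.21, adjusted p 0.103), or 0.23 with the trends removed and overlapping groups.

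Among 17 other fork genes 3 were higher at an unadjusted p under 0.05, against 13.6% of all genes. CHTF18, of the alternative clamp loader, was at 0.78 (SE 0.20, adjusted p 0.103), CHAF1A, the chromatin assembly factor that follows PCNA, at 0.75 (SE 0.24, adjusted p 0.12), and POLD4, the smallest subunit of polymerase delta, at 0.99 (SE 0.40, adjusted p 0.172). After removal of the trends these were 0.26, 0.46 and 0.57, with overlapping groups for CHAF1A and POLD4. POLD4 rests on 1.36 to 4.52 CPM, and its groups overlapped before the removal as well. Of 11 further nucleotide genes 5 were higher at that p, DCTPP1, DUT, DTYMK, DGUOK and NME1, with GC-removed values of 0.79, 0.65, 0.16, 0.52 and 0.65. DCTPP1, which breaks down dCTP, had 55.0, 39.4 and 23.6 CPM in the controls and 85.9, 104 and 58.9 after knockdown, a log2 fold change of 1.08 (SE 0.27, adjusted p 0.103) without overlap. DUT, which removes dUTP, had 0.52 (SE 0.20, adjusted p 0.156), and the groups did not overlap in either fit. RRM2B, the p53-induced reductase subunit, was lower at −0.44 (SE 0.19, adjusted p 0.189), or −0.11 with the trends removed.

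The 18 regulators of the G1 to S transition had a median of 0.13. E2F1, the activator of many of the 40 genes, had 35.2, 34.9 and 24.1 CPM in the controls and 65.2, 47.7 and 40.2 after knockdown, a log2 fold change of 0.70 (SE 0.22, adjusted p 0.122) without overlap. Once the trends were removed it was 0.15 and the groups overlapped. RBL2, the repressor p130 of quiescent cells, ran the other way across libraries. It had 32.4, 51.6 and 71.4 CPM in control libraries 1, 2 and 3 and 31.1, 29.4 and 34.9 in the knockdown libraries, so that its highest value was in sh-NC 3, where the 40 genes were lowest. Its log2 fold change was −0.70 (SE 0.24, adjusted p 0.133), or −0.41 with the trends removed, and the groups overlapped. E2F4 had 0.49 (SE 0.21, adjusted p 0.187), or 0.12 with the trends removed.

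Promoter windows of 250 bases before to 50 after the start site were given for 34 of the 40 genes. MCM4, MCM5, GINS4, POLD3, RPA2 and RPA3 had none and were not searched. E2F letters were found in 17 of the 34 (50%), in 11 of 54 windows of the other pathway genes (20.4%) and in 908 of all 27305 windows (3.33%). The letters CCAAT were in 20 of the 34 (58.8%, against 35.7% of all), TTTGAA in 1 (2.94%, against 15.4%) and TATAAA in 2 (5.88%, against 12.0%), each on either strand. The 17 genes with E2F letters had a median log2 fold change of 0.44, and the 17 without had 0.30. With the trends removed the medians were 0.34 and 0.30. A match of letters does not show that a factor binds there, and a window without a match says nothing about the factor.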

How the data were processed

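Libraries were made from total RNA of HCT116 cells using the TruSeq RNA chemistry. The authors deposited raw counts per gene for 62710 genes on GRCh38. The authors also deposited FPKM values, which are the counts divided by library total and gene length. The aligner, the counting tool and the use of strand are not given in the sources used here. Depth was 16146718 to 23576469 counts per library. Counts were fitted in edgeR 4.0.16 (R 4.3.3) with filterByExpr, TMM and the quasi-likelihood test for sh-IGF2BP3 against sh-NC, and p-values were adjusted by Benjamini-Hochberg over 16753 genes. CPM used library sizes scaled by TMM, and log2 CPM a prior count of 2. Trends with GC content of the longest GENCODE 29 transcript (known for 96.9% of tested genes) and with gene length were removed as offsets, using splines of 5 degrees of freedom. Alternatives were DESeq2 1.42.0, limma 3.58.1 on log2(FPKM + 1) or log2(FPKM + 0.1), RLE, other filters, the replicate number as a block and each library left out. Tests were tried on simulated data.

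The genes, the comparison lists and the settings were chosen with earlier results of these data known. Full values are given for the gene with the largest change and the gene with the highest FPKM in each role, and for each gene with an unadjusted p under 0.05. Other genes are given more briefly, and MCM3, MCM4, GINS1, GINS3, GINS4, CDC6, CDC45, POLD3, POLE2, RFC1, TYMS and RRM2 were given per library after their values were seen.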

Additional observations from a re-analysis of the deposited data

How the results depend on the processing

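No gene of the 40 passed the full threshold in edgeR, with RLE, with at least 10 counts in every library, with limma or with the trends removed, whereas DESeq2 called 6 and edgeR without a low-count filter called 6. Leaving out 1 library gave 0 to 13 called genes (13 without sh-NC 1), or 0 to 8 with the trends removed, and in those fits a group of 2 shares its spread with the group of 3. Genes higher at an unadjusted p under 0.05 numbered 6 to 22 with 1 library left out, and 2 to 27 with the trends removed as well (27, 5 and 2 without sh-NC 1, 2 and 3, and 7, 2 and 4 without sh-IGF2BP3 1, 2 and 3). Genes lower with no overlap numbered 0 to 1, the 1 being RFC1 without sh-NC 3. The median log2 fold change of the 40 stayed above 0 in each fit, from 0.14 to 0.50 with 1 library left out and from 0.11 to 0.53 with the trends removed as well. The difference in the ratio of CDT1 to GMNN turned from 0.65 to −0.070 with the trends removed, and the cause was not tested. In limma on log2(FPKM + 1), 32 of the 39 genes it tested were above 0. POLA2, at a mean of 0.691 FPKM, was below its filter of a mean of 1 FPKM. The share of all genes above 0 in that fit is not given here.

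Same-numbered libraries showed no shared deviation from their group means, with correlations of −0.28, −0.19 and −0.04 before removal of the trends. Those of differently numbered libraries ran from −0.26 to 0.32. The labels do not say whether same-numbered libraries were prepared together. With the replicate number as a block, 0 of the 40 genes were called, 13 were higher at an unadjusted p under 0.05 and the median was 0.37. The block together with the trends removed gave 8 at that p. The shares of all genes in these block fits are not given here, so these counts cannot be set against a background.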

Other observations

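Library sh-IGF2BP3 1 was the highest for some of the 40 genes and the lowest for others. Before removal of the trends it had the highest level of 7 of them and the lowest of 5 (12.5%, against 25.5% of all genes). After removal it had the highest of 0 and the lowest of 0, where it was the lowest for 18.1% of all genes. The shares of all genes for which it was the highest are not given here. Before removal sh-NC 1 likewise had the highest level of 1 gene and the lowest of 1. Library sh-IGF2BP3 1 was also the library with the steepest trend in GC content, 0.35 log2 units per 10 points.

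Processed pseudogenes, near copies of their parent genes, had 0 counts over the 6 libraries for all listed copies of the 40 genes except RRM2P2, which had 5.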
